A study of Arabidopsis thaliana with 12 samples.

Results

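The 44 genes described here are cyclins of classes A, B and D, cyclin-dependent kinases (CDKs) and their inhibitors, E2F and MYB3R transcription factors, and genes of replication licensing, DNA synthesis, chromosome segregation and cytokinesis. They were chosen by gene ID for their roles, with no measured value in the rule, though earlier results of these data were known. They are 44 of the 27655 genes in the deposited tables. All 44 reached the mean of 1 TPM over the libraries that a gene needed to be tested, as did 19528 genes in all. TPM is a gene's transcript abundance per length, scaled to the same total in each library. The RefSeq symbols or products of the 44 IDs name a protein of the stated family, though CYCA3;2 has the product name of a kinase beside its cyclin symbol.

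The plants were wild-type Arabidopsis thaliana seedlings of the Col-0 ecotype, several to a well, on medium with 1.5% sucrose at 22 °C. They received DMSO, the control, or abscisic acid (ABA), or 1 of its derivatives 3'-propyl ABA and 3'-butyl ABA, each at 10 µM for 6 h under continuous light. ABA is the hormone of drought and seed dormancy, and the derivatives differ from each other by 1 carbon in the alkyl chain that each has at the 3' position. Each treatment has 3 libraries of poly(A) RNA from whole seedlings, 12 in all. The sample labels give an age of 8 days and the series text 7 days, and nothing says that the replicates came from separate cultures, so p-values measure the spread between these libraries, which may be technical.

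Cell division in plants is driven by CDKs, which act only with a cyclin partner. D cyclins answer to sugar and hormones and, with CDKA, release E2F factors from the retinoblastoma-related protein, which opens the way to DNA synthesis. Before that, CDC6 and CDT1 load the MCM helicase on origins. PCNA is the sliding clamp of DNA polymerases, and ribonucleotide reductase makes the deoxynucleotides. B cyclins, B-type CDKs and the cytokinesis genes peak later, at mitosis, where MYB3R factors bind short promoter elements called MSA (mitosis-specific activator) elements. The KIP-related proteins (KRP) and the SIAMESE-related proteins (SMR) bind and inhibit CDK complexes. KRP1 was first described in Arabidopsis as ICK1, a CDK inhibitor gene induced by ABA.

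Between 9640000 and 12400000 reads per library were estimated to lie in genes, so that a single read on 1 kb of transcript equalled 0.130 to 0.169 TPM. These estimates, taken from the steps of the low values, put the 44 genes between 6 reads (WEE1 in the lowest library) and 877 reads (TSO2 in the highest). DMSO replicate 1 and ABA replicate 1 were the highest of their groups in root genes. Summed TPM of 7 root hair genes was 172 in DMSO replicate 1 against 62.6 to 73.5 in the other DMSO libraries, and 102 in ABA replicate 1 against 52.9 and 30.2 in ABA replicates 2 and 3. For 8 endodermis genes the ABA libraries stood at 113, 60.8 and 44.4, in the order of their numbers, and DMSO replicate 1 stood highest in DMSO, at 152. Markers of the whole seedling were present: the light-harvesting gene LHCB1.3 stood at 6110 to 14672 TPM and the endodermis gene CASP1 at 12.9 to 60.7 TPM. Of the shoot meristem markers, WUS (0 to 0.365 TPM) and CLV3 (0 to 0.191 TPM) were at or near 0 in every library.

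Short motifs upstream of the genes were spread unevenly over their roles. The 250 bases before each annotated start were read from the TAIR10.1 genome of RefSeq and searched on both strands for the E2F sites TTTCCCGC, TTTCGCGC, TTTGCCGC and TTTGGCGC, for the MSA core AACGG and its longer form CNAACGG, which holds the core, and for ACGTG, the core of the ABA-responsive element (ABRE). An E2F site lay upstream of 6 of the 44 genes (13.6%), against 1.41% of 27443 promoters of the same length. These were MCM2, MCM3, MCM4, MCM5, MCM6 and CYCD3;3. The MSA core was found in 19 of 44 (43.2%, against 20.6% of all promoters) and the longer form in 7 (15.9%, against 4.50%), among them 4 of the 5 B cyclin genes. All 5 cytokinesis and spindle genes held the MSA core, as did all 3 genes of the inhibitor and WEE1 group. It was upstream of 2 of 3 E2F and MYB3R genes, 2 of 4 A cyclin genes and 1 of 8 licensing and MCM genes. The ABRE core was found in 14 of 44 (31.8%, against 22.9%). A match is a description of the letters in this window, not of binding.

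**Figure D1:**
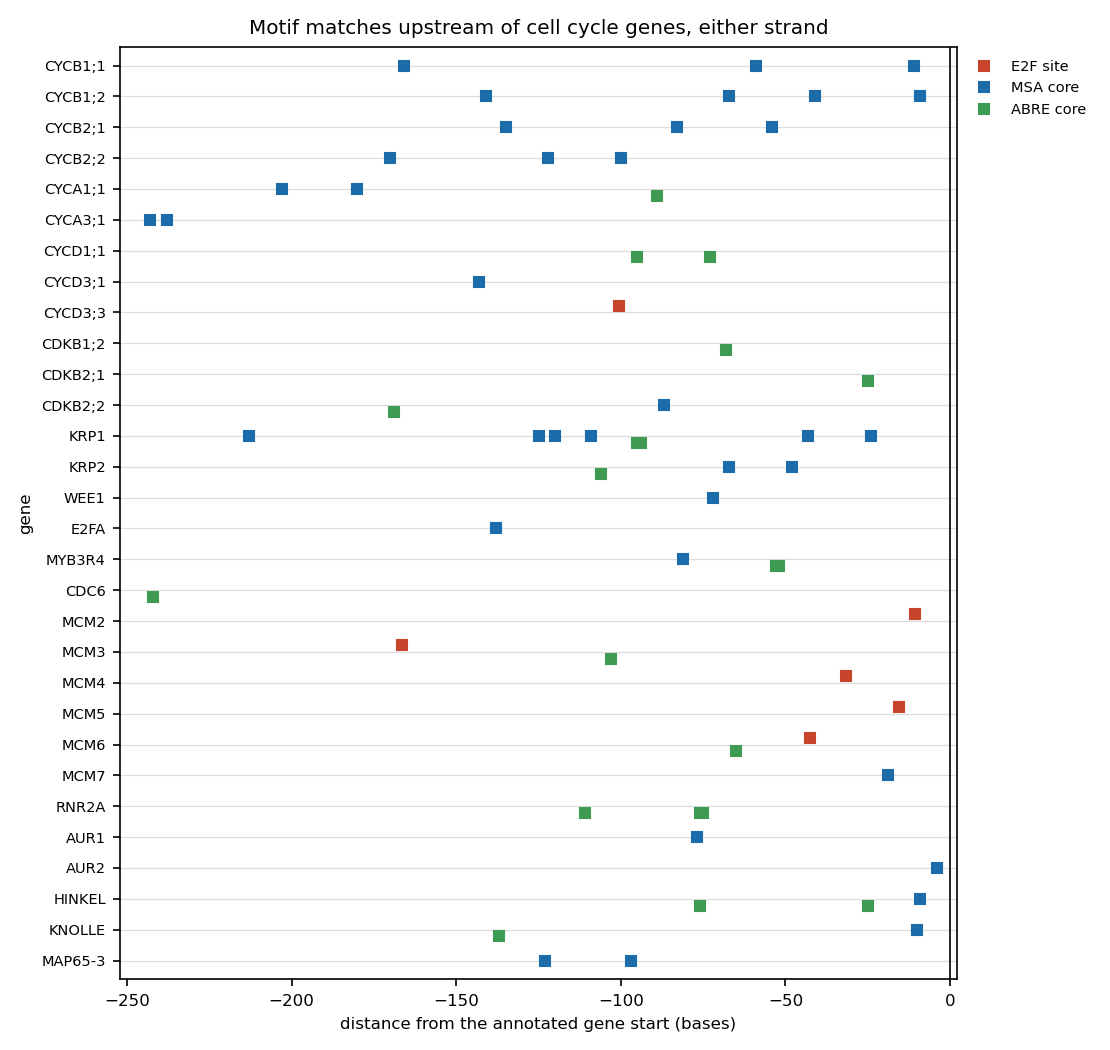
Matches of E2F sites (red), the MSA core (blue) and the ABRE core (green) on either strand in the 250 bases before the annotated start of the 30 genes that hold any, by distance from that start in bases. E2F sites lie in MCM2 to MCM6 and in 1 D cyclin gene, 4 of the 5 B cyclin genes and all 5 cytokinesis and spindle genes hold MSA cores, and KRP1 holds 6 MSA cores and overlapping ABRE cores.

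The 60 bases before the start are printed for the 4 MCM genes whose E2F site lies within them, because all MCM genes fell with 3'-propyl ABA. Capitals mark the E2F site. The windows are chr1:16970154-16970213 (plus strand) for MCM2, chr2:7130730-7130789 (minus strand) for MCM4, chr2:3527501-3527560 (minus strand) for MCM5 and chr5:18010668-18010727 (minus strand) for MCM6, in TAIR10.1, each written 5′ to 3′ on the strand of the gene.
MCM2: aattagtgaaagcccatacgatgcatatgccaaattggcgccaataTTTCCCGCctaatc
MCM4: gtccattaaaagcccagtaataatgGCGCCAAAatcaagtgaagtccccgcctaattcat
MCM5: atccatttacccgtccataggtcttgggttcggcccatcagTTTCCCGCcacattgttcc
MCM6: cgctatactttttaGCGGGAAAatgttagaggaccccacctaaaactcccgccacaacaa

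A pair of B cyclin promoters shows the mitotic elements. The windows are chr5:1861704-1861853 (minus strand) for CYCB1;2 and chr4:16901416-16901595 (plus strand) for CYCB2;2, and capitals mark the MSA core. In CYCB1;2 all 4 cores belong to the longer form.
CYCB1;2: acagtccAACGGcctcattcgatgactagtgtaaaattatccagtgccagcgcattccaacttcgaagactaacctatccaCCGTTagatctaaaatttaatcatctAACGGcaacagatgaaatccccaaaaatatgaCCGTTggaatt
CYCB2;2: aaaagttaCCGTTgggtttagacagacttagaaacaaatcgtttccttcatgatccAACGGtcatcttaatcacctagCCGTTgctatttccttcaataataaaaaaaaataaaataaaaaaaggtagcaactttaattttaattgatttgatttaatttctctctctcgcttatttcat

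The promoters of KRP1 and CYCD1;1, which rose, are printed beside them. The KRP1 window is chr2:9978091-9978340 (minus strand), in which capitals mark 6 MSA cores and an ABRE core read on both strands 97 to 92 bases before the start. The CYCD1;1 window is chr1:26439446-26439555 (plus strand), in which capitals mark 2 ABRE cores and no MSA core or E2F site was found over the 250 bases. AUR2, the other gene that rose, held 1 MSA core and no ABRE core.
KRP1: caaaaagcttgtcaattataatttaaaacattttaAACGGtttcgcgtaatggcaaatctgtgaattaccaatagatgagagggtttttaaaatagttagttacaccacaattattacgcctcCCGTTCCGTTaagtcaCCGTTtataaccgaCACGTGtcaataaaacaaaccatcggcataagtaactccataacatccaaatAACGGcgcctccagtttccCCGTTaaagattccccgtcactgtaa
CYCD1;1: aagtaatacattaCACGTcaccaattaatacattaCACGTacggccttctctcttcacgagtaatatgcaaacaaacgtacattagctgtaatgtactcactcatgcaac

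3'-propyl ABA lowered most of the 44 genes within 6 h. With all libraries in the fit, ABA and 3'-butyl ABA lowered no larger a share of them than of all genes, but for ABA this depended on the setting. Without ABA replicate 3, 38.6% of the 44 and 23% of all genes were lower with ABA, and under quantile normalization 29.5% and 27.2%. With 3'-propyl ABA 32 of the 44 genes fell against DMSO (72.7%, background 38.5% of the genes tested), 3 rose (6.82%, background 27.5%) and 9 were not called. With ABA 10 fell (22.7%, background 24.7%) and 3 rose (6.82%, background 22%). With 3'-butyl ABA 8 fell (18.2%, background 25.6%) and 2 rose (4.55%, background 25.1%). The same backgrounds apply to the counts against DMSO by role group, gene family, motif and marker below. Calls are at an adjusted p under 0.05 (limma on log2(TPM + 1), Benjamini-Hochberg over all genes tested, two-sided), and differences below are on that log2 scale with standard errors, which understates the change of low genes.

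The median difference of the 44 genes from DMSO was -0.65 with 3'-propyl ABA, -0.18 with ABA and -0.13 with 3'-butyl ABA, where the medians of all genes tested were -0.12, -0.03 and 0.00. The 3 comparisons share the DMSO libraries. Of the 3 compounds, 3'-propyl ABA gave the lowest mean for 39 of the 44 genes. Summed over the 44 genes, the level was 666 to 748 TPM in DMSO, 580 to 678 with ABA, 456 to 510 with 3'-propyl ABA and 612 to 619 with 3'-butyl ABA, and the 3'-propyl ABA libraries overlapped no other group. By at least 1 unit of log2(TPM + 1), 4 of the 44 fell with 3'-propyl ABA, CYCA3;1, PCNA1, CYCD3;3 and E2FA (background 12.9%). By the same size 2 rose, KRP1 and AUR2 (background 11.3%). No gene of the 44 passed that size with ABA (background 3.65% lower and 6.79% higher), with 3'-butyl ABA (3.49% and 7.91%), or between 3'-propyl ABA and ABA (2.85% and 3.54%) or 3'-butyl ABA and ABA (0.0666% and 0.215%). Between 3'-butyl ABA and 3'-propyl ABA 1 did, KRP1, which was lower with 3'-butyl ABA (background 4.41% lower and 5.8% higher). Low genes can pass 2-fold in mean TPM without reaching this size, as AUR2 did with ABA and with 3'-butyl ABA. In whole seedlings, fewer dividing cells and less RNA per cell cannot be told apart.

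**Figure D2:**
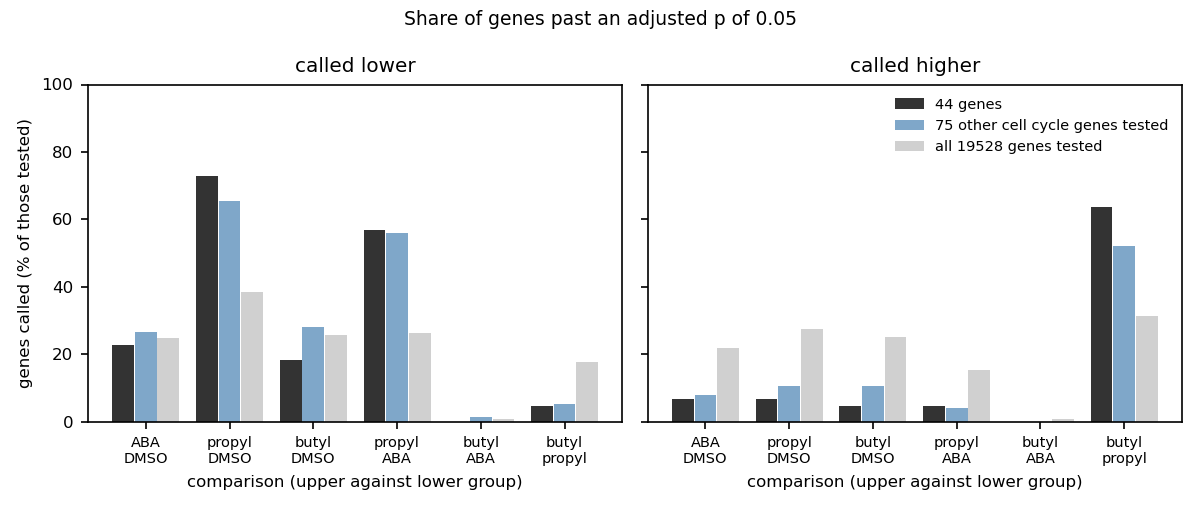
Share of genes called lower (left) and higher (right) in each comparison, for the 44 genes, the 75 other cell cycle genes tested and all 19528 genes tested, in percent. With 3'-propyl ABA against DMSO 72.7% of the 44 genes were lower, against 38.5% of all genes.

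Scaling bears on the 3'-propyl ABA comparisons. With median-of-ratios scaling the median of all genes against DMSO moved from -0.12 to 0.01, and 29 of the 44 genes (65.9%) were called lower, against 32.4% of all genes. With quantile normalization 27 (61.4%) were lower, against 36.2%. ABA replicate 3 was the highest of the ABA libraries in the summed level of the 44 genes (678 TPM, against 580 and 591). Without it 17 of the 44 genes (38.6%) were lower with ABA than in DMSO, against 23% of all genes, and 16 (36.4%, against 22.5%) without both it and DMSO replicate 1. Leaving out ABA replicate 1 or 2 gave 8 (18.2%, against 22.8%) and 7 (15.9%, against 20.4%). With 3'-propyl ABA 32 were lower without both libraries. Single libraries decided some calls against DMSO. With 3'-propyl ABA, the decreases of CYCA1;1, CYCB1;1, CYCB2;2 and CDKB2;1 were lost without DMSO replicate 2 or without 3'-propyl ABA replicate 2 (adjusted p of 0.0533 to 0.0938), that of WEE1 without 3'-propyl ABA replicate 2 (0.0566) and that of CDC6 without 3'-propyl ABA replicate 3 (0.0654). With ABA, those of CYCA3;2, DEL1 and PCNA1 were lost without ABA replicate 2 (0.0526, 0.0698 and 0.0767) and that of CDT1A without ABA replicate 1 (0.171). With 3'-butyl ABA, those of MCM3 and RNR2A were lost without DMSO replicate 2 (0.148 and 0.109). Scaling decided some of them too. With 3'-propyl ABA, CDKB2;1 (0.163 and 0.0544), CYCA1;1 (0.074 and 0.143) and CYCB2;2 (0.0547 and 0.137) were lost under median-of-ratios scaling and quantile normalization. CYCB1;1 (0.108) and CDC6 (0.137) were lost under quantile normalization. With median-of-ratios scaling CDT1A with ABA (0.0847) and MCM3 with 3'-butyl ABA (0.0647) were lost. These p-values are from limma, and leaving out other libraries had the same effect on CYCA1;1, CYCB2;2, CDKB2;1, DEL1, PCNA1, CDT1A, MCM3 and RNR2A.

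Some markers of dividing and young tissue were lower with 3'-propyl ABA, as were most of the 44 genes. All 8 stomatal lineage markers fell with 3'-propyl ABA, and their summed TPM was 54.3 to 70.4 in DMSO, 42.5 to 51.6 with ABA, 26.5 to 28.7 with 3'-propyl ABA and 36.4 to 45.1 with 3'-butyl ABA. The summed shoot meristem markers, mostly CLV1, were at 50.9 to 52.6, 62.2 to 69.1, 23.6 to 27.9 and 67.1 to 72.5 TPM in the same order, with 2 of 3 tested genes lower with 3'-propyl ABA and the same number higher with ABA and with 3'-butyl ABA. Of 4 tested root meristem markers 2 fell with 3'-propyl ABA (summed TPM of all 5 markers 32.6 to 43.1 in DMSO and 23.6 to 30.1 with 3'-propyl ABA), as did 1 of 2 young organ markers, ANT (18.9 to 25.3 and 11.5 to 15.4 TPM for both markers). Of 8 endodermis markers 2 fell and 1 rose with 3'-propyl ABA (summed TPM 54.7 to 152 in DMSO and 37.8 to 66.1), and of 7 root hair markers none was called (62.6 to 172 and 49.8 to 91.4). With 3'-butyl ABA the summed endodermis markers stood at 123.5 to 162.8 TPM, above every 3'-propyl ABA library and every ABA library (44.4 to 113). The summed root hair markers stood at 76.4 to 150 TPM with 3'-butyl ABA and 30.2 to 102 with ABA. Of 3 photosynthetic markers 2 fell with 3'-propyl ABA, and 2 rose with ABA and with 3'-butyl ABA. The part of these tissues in the cell cycle differences was not tested.

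**Figure D3:**
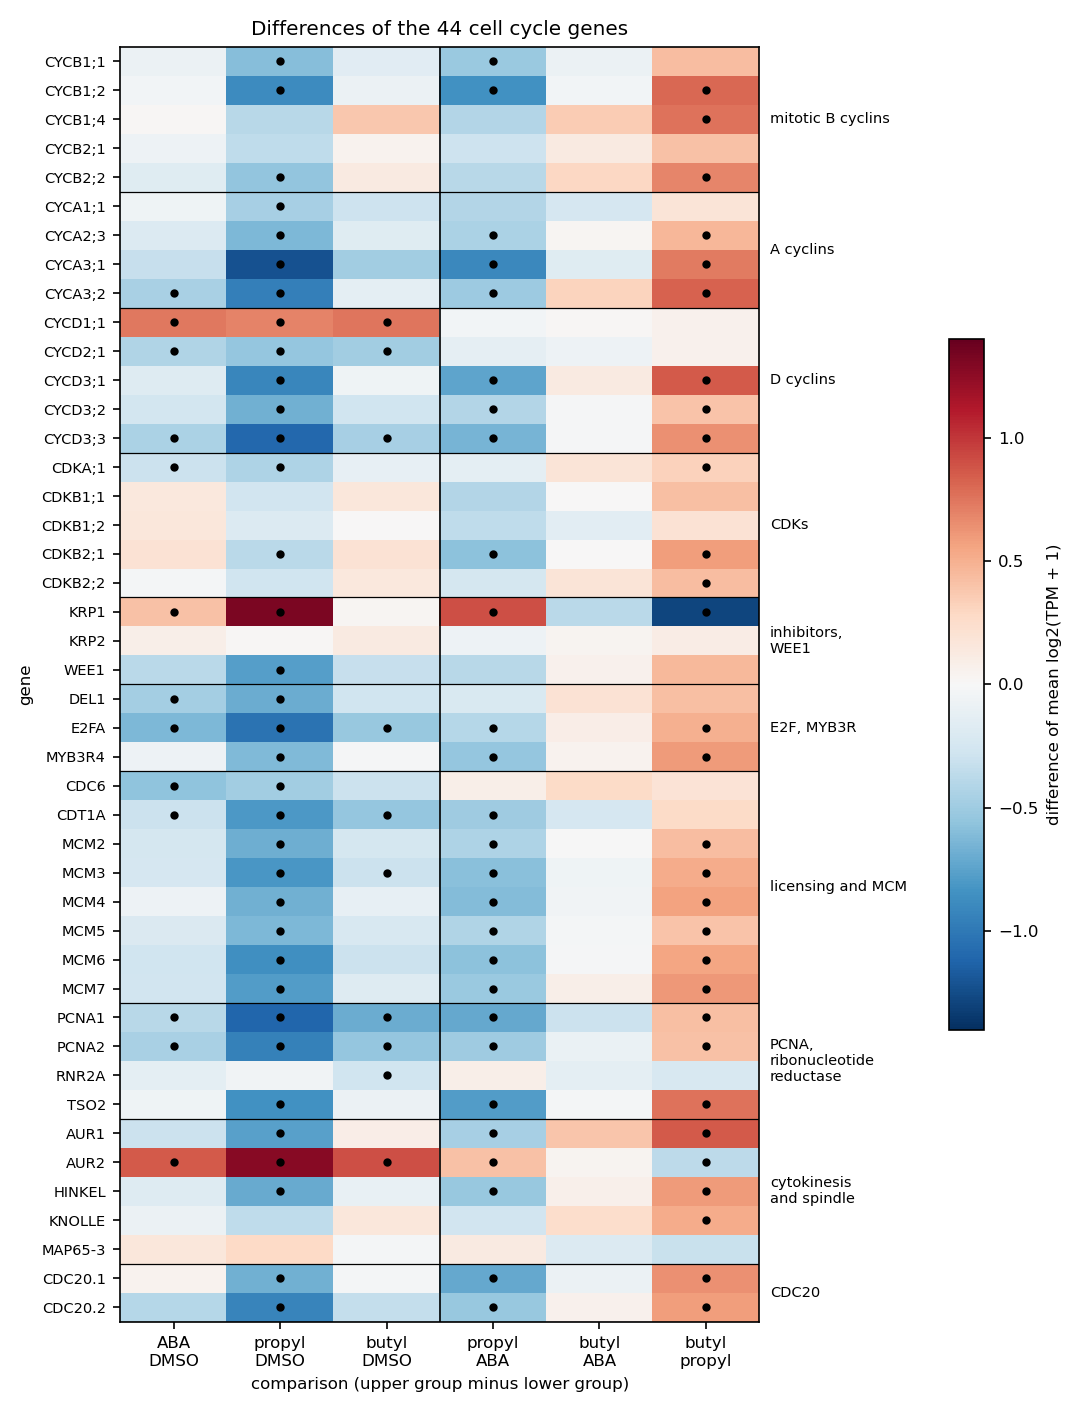
Difference of mean log2(TPM + 1) of the 44 genes in the 6 comparisons, upper group minus lower group, ordered by role. Black points mark an adjusted p under 0.05. The column for 3'-propyl ABA against DMSO has 32 genes lower and 3 higher, and that for 3'-butyl ABA against ABA has no call.

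D cyclins couple growth signals to the cycle, and with 3'-propyl ABA 4 of 5 fell (background 38.5%) and 1 rose (background 27.5%). CYCD3;3 (AT3G50070) stood at 25.9, 25.3 and 24.4 TPM in the DMSO libraries, 17.7, 15.9 and 21.4 with ABA, 9.63, 13.5 and 10.8 with 3'-propyl ABA and 18.4, 17.2 and 18.2 with 3'-butyl ABA. No treated library reached the DMSO range, and the 3'-propyl ABA libraries were the lowest. The differences from DMSO were -0.45 ± 0.12 with ABA, -1.10 ± 0.12 with 3'-propyl ABA and -0.47 ± 0.12 with 3'-butyl ABA, each called (limma adjusted p = 0.009, 4.8e-06 and 0.0065).

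CYCD3;1 (AT4G34160), the D cyclin known for its response to cytokinin and sugar, read 18.6, 23.2 and 20.9 TPM in DMSO, 16.7, 17.3 and 20.8 with ABA, 13.7, 10.7 and 7.99 with 3'-propyl ABA and 20.14, 19.7 and 19.9 with 3'-butyl ABA. It fell with 3'-propyl ABA (-0.92 ± 0.15), and the ABA (-0.18 ± 0.15) and 3'-butyl ABA (-0.06 ± 0.15) differences did not pass. The third gene of the subclass, CYCD3;2 (AT5G67260), was at 39.5, 38 and 35.5 TPM in DMSO and 27, 21.9 and 20.9 with 3'-propyl ABA (-0.68 ± 0.11), and its ABA libraries (28.1, 29.4 and 36.8 TPM) overlapped DMSO. CYCD2;1 (AT2G22490) stood at 30.5, 31.3 and 28.7 TPM in DMSO, 24.1, 23.5 and 19.8 with ABA, 19.1, 20.3 and 21.7 with 3'-propyl ABA and 21.6, 21.1 and 21.1 with 3'-butyl ABA and fell with all 3 compounds, by 0.42 with ABA, by 0.55 with 3'-propyl ABA and by 0.49 with 3'-butyl ABA.

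CYCD1;1 (AT1G70210) went the other way. Its level was 11.6, 11.5 and 11.9 TPM in DMSO, 17.3, 19.8 and 23.6 with ABA, 24.1, 17.1 and 18 with 3'-propyl ABA and 22.1, 19.7 and 19.3 with 3'-butyl ABA. All 9 treated libraries lay above all 3 DMSO libraries, and the compounds overlapped each other. The rises were 0.73 ± 0.13, 0.69 ± 0.13 and 0.75 ± 0.13 (adjusted p = 0.00058, 0.00045 and 0.00045, limma). The ratio of CYCD1;1 to CYCD3;1 within a library was 0.497 to 0.623 in DMSO, 1.03 to 1.14 with ABA, 1.6 to 2.26 with 3'-propyl ABA and 0.968 to 1.10 with 3'-butyl ABA, so that CYCD1;1 was the higher of the pair in 7 of the 9 treated libraries and in no DMSO library.

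**Figure D4:**
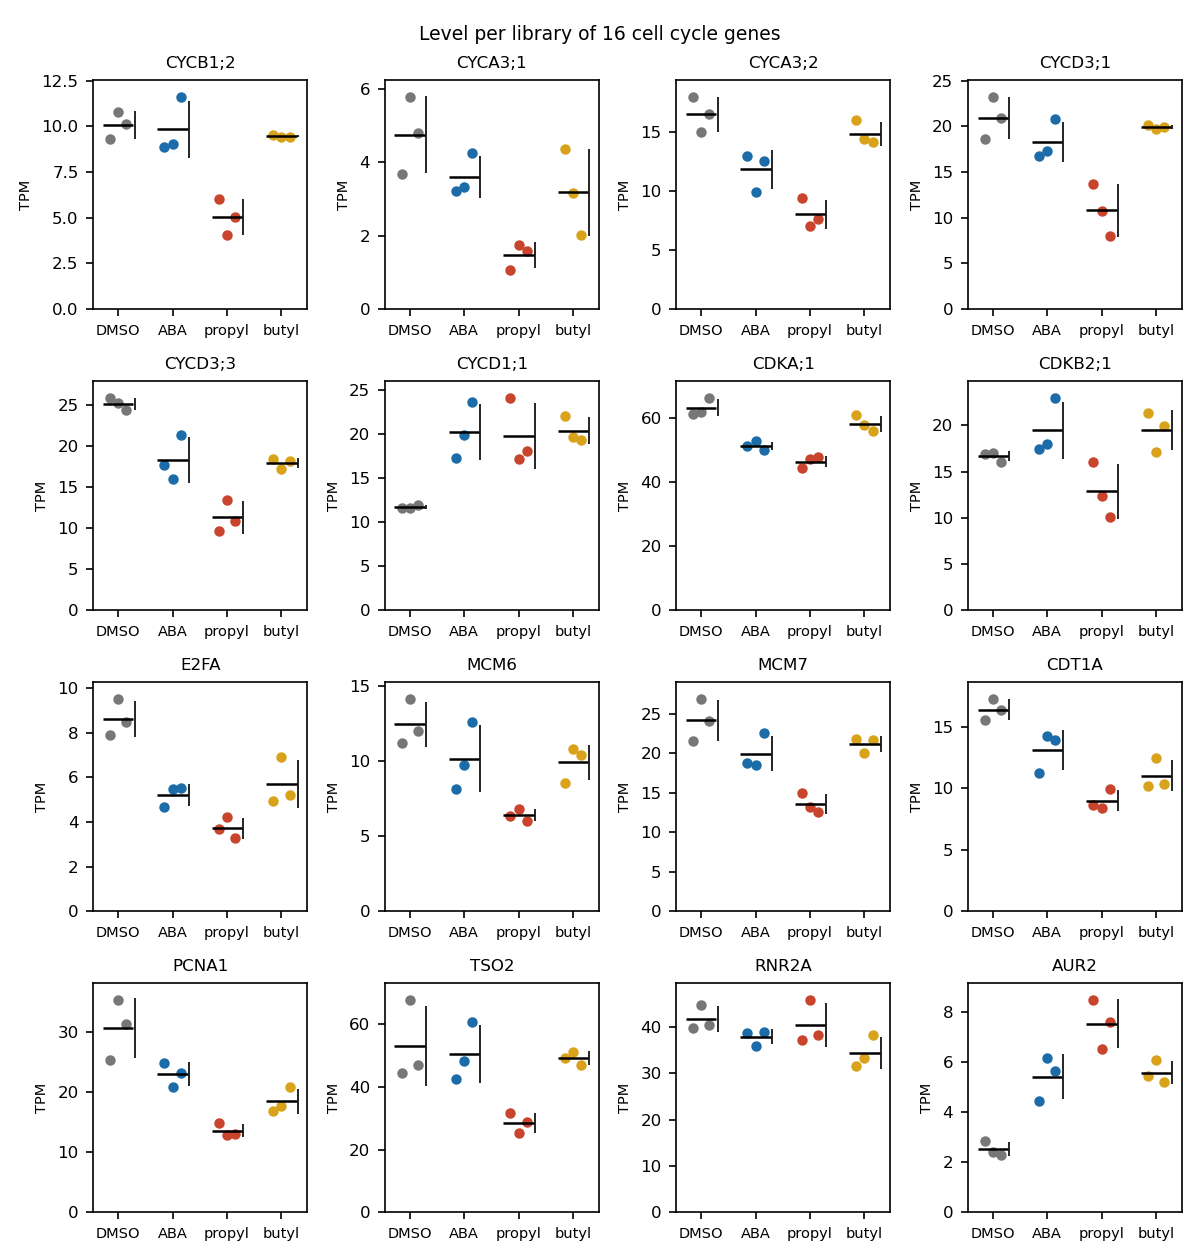
Level in TPM of 16 of the 44 genes in each library by treatment, with the mean (horizontal line) and 1 SD to either side (vertical line), 3 libraries a group. Most panels are lowest in 3'-propyl ABA, while CYCD1;1 and AUR2 lie above DMSO in every treated library and RNR2A differs little.

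Among the A cyclins, which act from the start of DNA synthesis into mitosis, all 4 fell with 3'-propyl ABA (background 38.5%). CYCA3;1 (AT5G43080) had the largest decrease of the 44 genes, from 3.68, 5.78 and 4.81 TPM in DMSO to 1.07, 1.74 and 1.58 with 3'-propyl ABA (-1.22 ± 0.22, adjusted p = 0.00032, limma). It read 3.2, 3.32 and 4.24 TPM with ABA and 4.36, 3.17 and 2.01 with 3'-butyl ABA, both overlapping DMSO and neither called. CYCA3;2 (AT1G47210) was at 18, 15 and 16.5 TPM in DMSO, 13, 9.92 and 12.6 with ABA, 9.39, 7.01 and 7.67 with 3'-propyl ABA and 16, 14.4 and 14.2 with 3'-butyl ABA. It fell with ABA (-0.45 ± 0.13) and with 3'-propyl ABA (-0.96 ± 0.13), and the 3'-butyl ABA difference was -0.14 ± 0.13.

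The other A cyclins were closer to DMSO. CYCA2;3 (AT1G15570) read 9.69, 10.5 and 10 TPM in DMSO and 6.54, 6.65 and 5.32 with 3'-propyl ABA (-0.63 ± 0.13). CYCA1;1 (AT1G44110), a mitotic A cyclin, read 5.34, 7.29 and 5.66 TPM in DMSO and 4.73, 3.9 and 3.7 with 3'-propyl ABA (-0.47 ± 0.16). Neither was called with ABA or 3'-butyl ABA. The 3'-propyl ABA call of CYCA1;1 was lost under median-of-ratios scaling and under quantile normalization.

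Of the 5 B cyclins, which drive entry into mitosis, 3 fell with 3'-propyl ABA (background 38.5%). None was called with ABA or 3'-butyl ABA (limma, with 0 of 5 at an unadjusted p under 0.05 with ABA and 1 of 5, CYCB1;4 (AT2G26760), with 3'-butyl ABA). CYCB1;2 (AT5G06150) was the most abundant, at 9.28, 10.8 and 10.14 TPM in DMSO, 8.86, 9.03 and 11.6 with ABA, 6.01, 4.07 and 5.06 with 3'-propyl ABA and 9.55, 9.44 and 9.41 with 3'-butyl ABA. Only the 3'-propyl ABA libraries lay outside the range of the rest, and the decrease was -0.88 ± 0.13 against DMSO and -0.84 ± 0.13 against ABA. CYCB1;1 (AT4G37490), a common marker of cells in mitosis, read 3.47, 4.4 and 3.16 TPM in DMSO and 2.49, 1.59 and 2.25 with 3'-propyl ABA (-0.59 ± 0.18). CYCB2;2 (AT4G35620) read 3.33, 3.59 and 3.05 TPM in DMSO and 2.81, 1.48 and 1.69 with 3'-propyl ABA (-0.55 ± 0.19). The calls of CYCB1;1 and CYCB2;2 were lost under quantile normalization. The remaining B cyclins, CYCB1;4 (-0.39 ± 0.17) and CYCB2;1 (AT2G17620, -0.36 ± 0.21), did not pass, and the latter rested on 8 to 23 reads a library.

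The kinases themselves moved less. CDKA;1 (AT3G48750), the CDK of the whole cycle, stood at 61.4, 62 and 66.2 TPM in DMSO, 51.2, 52.7 and 50 with ABA, 44.3, 47.2 and 47.7 with 3'-propyl ABA and 60.9, 57.7 and 55.8 with 3'-butyl ABA. Every ABA and 3'-propyl ABA library was below every DMSO and 3'-butyl ABA library. It fell by 0.30 with ABA and by 0.44 with 3'-propyl ABA (SE 0.06 for each), and the 3'-butyl ABA difference was -0.12 ± 0.06 (adjusted p = 0.13, limma). Among the 4 mitotic B-type CDKs, CDKB2;1 (AT1G76540) fell with 3'-propyl ABA, from 16.9, 17.1 and 16.1 to 16.1, 12.4 and 10.09 TPM (-0.37 ± 0.15). That call was lost under median-of-ratios scaling and quantile normalization, with no filter and with only the libraries compared. CDKB1;1 (AT3G54180), CDKB1;2 (AT2G38620) and CDKB2;2 (AT1G20930) differed by -0.28 to -0.20 and were not called.

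Entry into DNA synthesis is set by E2F factors, and E2FA (AT2G36010), an activating E2F, fell with all 3 compounds. It was at 7.87, 9.5 and 8.47 TPM in DMSO, 4.65, 5.46 and 5.51 with ABA, 3.68, 4.2 and 3.26 with 3'-propyl ABA and 4.92, 6.91 and 5.21 with 3'-butyl ABA, and no treated library reached DMSO. The differences were -0.63 ± 0.14, -1.03 ± 0.14 and -0.53 ± 0.14, and 3'-propyl ABA was also below ABA (-0.40 ± 0.14). That last call was lost under both other scalings (-0.31, adjusted p = 0.112, and -0.20, adjusted p = 0.346, limma), with only the 6 libraries compared (0.0633), and without ABA replicate 2 or 3 or 3'-propyl ABA replicate 1 or 3 (0.0748 to 0.125). DEL1 (AT3G48160), an atypical E2F that represses the switch from division to endoreduplication, read 4.13, 3.71 and 4.23 TPM in DMSO, 2.36, 2.6 and 2.85 with ABA and 1.96, 1.53 and 3.01 with 3'-propyl ABA (-0.48 ± 0.16 and -0.69 ± 0.16). MYB3R4 (AT5G11510), an activator of mitotic genes, was at 4.15, 3.83 and 3.35 TPM in DMSO and 2.64, 1.78 and 1.98 with 3'-propyl ABA (-0.61 ± 0.14), and read 3.31, 3.39 and 3.91 with ABA, which was not called.

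Replication licensing was the largest role group that fell as a whole: all 8 genes, CDC6 (AT2G29680), CDT1A (AT2G31270) and MCM2 (AT1G44900) to MCM7 (AT4G02060), were lower with 3'-propyl ABA than in DMSO, with a median of -0.73 and a range of -0.86 to -0.49. With ABA 2 of 8 fell, CDC6 and CDT1A (background 24.7%), and with 3'-butyl ABA 2 of 8, CDT1A and MCM3 (background 25.6%). Both of these shares were near the background. The CDC6 decrease with 3'-propyl ABA was lost under quantile normalization. MCM6 (AT5G44635) read 11.2, 14.1 and 12 TPM in DMSO, 8.17, 9.76 and 12.6 with ABA, 6.37, 6.81 and 6.04 with 3'-propyl ABA and 8.56, 10.8 and 10.4 with 3'-butyl ABA (-0.86 ± 0.14 for 3'-propyl ABA). Its 3'-propyl ABA libraries were below all others, and ABA overlapped DMSO.

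MCM3 (AT5G46280) was at 15, 17.3 and 14.8 TPM in DMSO, 10.9, 13.8 and 15.2 with ABA, 8.35, 8.57 and 8.46 with 3'-propyl ABA and 12.9, 12.7 and 12.2 with 3'-butyl ABA (-0.82 ± 0.11 and, for 3'-butyl ABA, -0.30 ± 0.11). MCM7 read 21.6, 26.8 and 24.1 TPM in DMSO, 18.7, 18.6 and 22.5 with ABA, 15, 13.2 and 12.5 with 3'-propyl ABA and 21.8, 19.9 and 21.6 with 3'-butyl ABA (-0.78 ± 0.10 for 3'-propyl ABA). The 3'-propyl ABA libraries of both genes lay below all others. The decrease in mean TPM over the 6 subunits ran from 36.7% for MCM5 (AT2G07690) to 48.5% for MCM6. MCM2 (-0.68 ± 0.11), MCM4 (AT2G16440, -0.68 ± 0.10) and MCM5 (-0.63 ± 0.09) fell as well. CDT1A, the loading factor, read 15.6, 17.2 and 16.4 TPM in DMSO, 11.3, 14.2 and 13.9 with ABA, 8.61, 8.38 and 9.97 with 3'-propyl ABA and 10.2, 12.4 and 10.4 with 3'-butyl ABA, and fell with each (-0.30 ± 0.11, -0.80 ± 0.11 and -0.54 ± 0.11). CDC6 differed from the rest of the group in order, with 4.16, 4.3 and 3.69 TPM in DMSO, 2.26, 2.47 and 2.49 with ABA and 2.86, 3.23 and 1.85 with 3'-propyl ABA, where the ABA and 3'-propyl ABA libraries overlapped (-0.57 ± 0.15 and -0.49 ± 0.15).

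The 6 genes with an upstream E2F site, of which MCM2, MCM4, MCM5 and MCM6 are printed above, all fell with 3'-propyl ABA. They fell by 0.63 to 1.10 on the log2 scale with a median of -0.75. Of the 38 genes without such a site, 26 fell, 3 rose and 9 were not called (median -0.60). Of the 19 genes with an MSA core 12 fell and 2 rose (median -0.59), and of the 25 without it 20 fell and 1 rose (median -0.68). Of the 14 genes with an ABRE core 7 fell and 2 rose (median -0.37), and of the 30 without it 25 fell and 1 rose (median -0.69). These are counts over genes and carry no test.

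Genes of DNA synthesis proper were lower too, apart from 1. PCNA1 (AT1G07370) stood at 25.4, 35.3 and 31.4 TPM in DMSO, 24.8, 20.9 and 23.3 with ABA, 14.8, 12.9 and 13 with 3'-propyl ABA and 16.9, 17.7 and 20.8 with 3'-butyl ABA. All treated libraries were below DMSO, and the decreases were -0.39 ± 0.12, -1.11 ± 0.12 and -0.70 ± 0.12 (adjusted p = 0.018, 4.4e-06 and 0.00045, limma). PCNA2 (AT2G29570) read 43.8, 52.8 and 43.5 TPM in DMSO, 31.1, 32.5 and 37.7 with ABA, 24.4, 24.4 and 22.1 with 3'-propyl ABA and 31.2, 30.7 and 33.1 with 3'-butyl ABA, with differences of -0.45 ± 0.09, -0.95 ± 0.09 and -0.54 ± 0.09. These clamp genes and CYCD3;3 were among the 6 genes lower with all 3 compounds, with E2FA, CDT1A and CYCD2;1.

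The small subunits of ribonucleotide reductase parted. TSO2 (AT3G27060) was at 44.3, 67.5 and 47.1 TPM in DMSO, 42.5, 48.1 and 60.7 with ABA, 31.6, 25.3 and 28.9 with 3'-propyl ABA and 49.3, 51.2 and 46.9 with 3'-butyl ABA, and fell with 3'-propyl ABA (-0.85 ± 0.16). RNR2A (AT3G23580) read 39.8, 44.9 and 40.5 TPM in DMSO, 38.8, 36 and 38.9 with ABA, 37.2, 45.8 and 38.4 with 3'-propyl ABA and 31.6, 33.4 and 38.3 with 3'-butyl ABA, with -0.05 ± 0.09 for 3'-propyl ABA (95% interval -0.25 to 0.16) and a decrease of 0.27 with 3'-butyl ABA (adjusted p = 0.029, limma). The ratio of RNR2A to TSO2 was 0.664 to 0.900 in DMSO and 1.18 to 1.81 with 3'-propyl ABA. The large subunit, RNR1, belongs to the other cell cycle genes below and fell by 1.57.

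Among the genes of mitosis and cytokinesis the Aurora kinases moved in opposite directions. AUR1 (AT4G32830) stood at 5.51, 6.9 and 6.93 TPM in DMSO, 4.69, 4.37 and 6.23 with ABA, 3.58, 2.78 and 3.89 with 3'-propyl ABA and 6.11, 6.81 and 7.98 with 3'-butyl ABA, and fell with 3'-propyl ABA (-0.76 ± 0.16). AUR2 (AT2G25880) read 2.84, 2.41 and 2.3 TPM in DMSO, 4.43, 6.17 and 5.63 with ABA, 8.45, 6.52 and 7.59 with 3'-propyl ABA and 5.43, 6.08 and 5.19 with 3'-butyl ABA, with every treated library above DMSO (0.86 ± 0.14, 1.27 ± 0.14 and 0.90 ± 0.14). The ratio of AUR2 to AUR1 went from 0.331 to 0.515 in DMSO to 1.952 to 2.36 with 3'-propyl ABA.

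A gene on the opposite strand lies within AUR2. AT2G25890, annotated as an oleosin family gene, covers 877 of the 2379 exonic bases of AUR2 (36.9%; AUR2 at chr2:11034652-11038191 in TAIR10.1). It stood at 2.15, 1.49 and 1.38 TPM in DMSO, 21.6, 19.99 and 46.5 with ABA, 29.3, 14.2 and 40.7 with 3'-propyl ABA and 18.4, 16.01 and 16.15 with 3'-butyl ABA, a rise of 3.41, 3.34 and 2.75. The labels describe strand-specific libraries, but how strand was used in counting is not given in the sources used here, so reads of AUR2 and AT2G25890 cannot be told apart with certainty. AUR2 was highest with 3'-propyl ABA and AT2G25890 was highest in ABA replicate 3. Genes on the other strand also overlap exons of PCNA2 (23.6% of its exonic bases), AUR1 (19.2%), CDKB1;2 (18.3%) and DEL1 (16.2%). With 3'-propyl ABA the gene opposite AUR1, PFK6, fell by 0.73 (limma adjusted p = 0.0024), close to the decrease of AUR1. The gene opposite CDKB1;2 fell by 0.42, that opposite DEL1 rose by 0.47, and that opposite PCNA2 was not called (0.09). Reads of AUR1 and PFK6 cannot be told apart with certainty either.

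Cytokinesis genes proper were split between called and not called. HINKEL (AT1G18370), the kinesin of the cell plate, read 6.01, 7.24 and 5.55 TPM in DMSO and 4.28, 3.12 and 3.04 with 3'-propyl ABA (-0.70 ± 0.16). KNOLLE (AT1G08560), the syntaxin of the cell plate (-0.36 ± 0.19), and MAP65-3 (AT5G51600), which bundles microtubules of the phragmoplast (0.28 ± 0.13), were not called with 3'-propyl ABA, and 33.5% of the exonic bases of KNOLLE are shared with NPQ1 on the other strand. Both CDC20 genes, activators of the anaphase-promoting complex, fell with 3'-propyl ABA, CDC20.1 (AT4G33270) from 16.9, 17.3 and 17.7 to 13.6, 9.78 and 8.61 TPM (-0.67 ± 0.16) and CDC20.2 (AT4G33260) from 14.5, 10.7 and 12 to 7.66, 6.24 and 4.54 TPM (-0.92 ± 0.16). These neighbours share 412 stretches of 100 bases, 20.6% and 21.3% of those in their transcripts, so their separate values are uncertain.

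KRP1 (AT2G23430), a CDK inhibitor gene, had the largest rise of the 44 genes. It stood at 11.4, 11.2 and 10.07 TPM in DMSO, 13.9, 17.3 and 13.3 with ABA, 28.2, 30.7 and 26.7 with 3'-propyl ABA and 9.85, 10.06 and 13.7 with 3'-butyl ABA. The 3'-propyl ABA libraries were far above all others, the ABA libraries just above DMSO, and the 3'-butyl ABA libraries overlapped both DMSO and ABA. It rose by 0.41 ± 0.13 with ABA (adjusted p = 0.021) and by 1.31 ± 0.13 with 3'-propyl ABA (adjusted p = 1.9e-06), and the 3'-butyl ABA difference was 0.03 ± 0.13 (adjusted p = 0.88, limma, 95% interval -0.25 to 0.31). The ABA call was lost without DMSO replicate 3 or without ABA replicate 2 (adjusted p = 0.0736 and 0.1).

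KRP2 (AT3G50630), in contrast, read 16.4, 14.3 and 13.2 TPM in DMSO, 16.9, 17.2 and 12.7 with ABA, 16.4, 14.2 and 13.6 with 3'-propyl ABA and 15.9, 16.9 and 15.1 with 3'-butyl ABA, and was not called in any comparison (intervals of -0.19 to 0.35, -0.25 to 0.28 and -0.15 to 0.39 against DMSO). WEE1 (AT1G02970), a kinase that holds CDKs inactive, read 3.06, 2.34 and 2.72 TPM in DMSO and 2.14, 0.511 and 1.16 with 3'-propyl ABA (-0.77 ± 0.24), on 6 to 37 reads a library. Set against its target kinase, the ratio of KRP1 to CDKA;1 in TPM was 0.152 to 0.185 in DMSO, 0.266 to 0.329 with ABA, 0.561 to 0.650 with 3'-propyl ABA and 0.162 to 0.246 with 3'-butyl ABA.

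**Figure D5:**
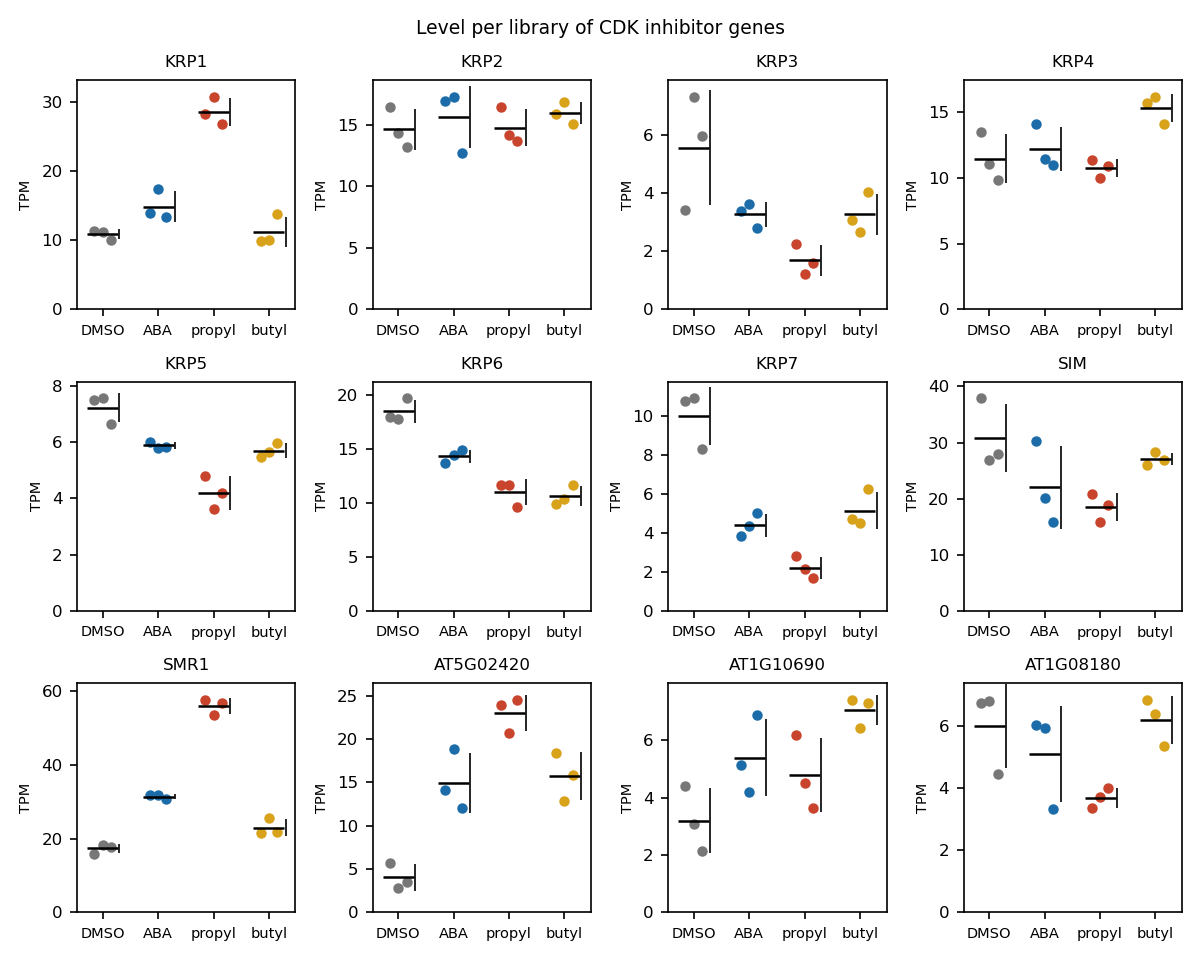
Level in TPM of 12 CDK inhibitor genes of the KRP and SIAMESE families in each library by treatment, with the mean (horizontal line) and 1 SD to either side (vertical line), 3 libraries a group. KRP1, SMR1 and AT5G02420 are highest with 3'-propyl ABA, and KRP3, KRP5 and KRP7 are lowest there.

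The rest of the inhibitor families went both ways. SMR1, known in Arabidopsis as LGO for its role in giant sepal cells, was at 16, 18.3 and 17.8 TPM in DMSO, 31.8, 31.7 and 30.7 with ABA, 57.7, 53.6 and 56.9 with 3'-propyl ABA and 21.5, 25.6 and 21.7 with 3'-butyl ABA, with no overlap between any 2 treatments. It rose by 0.82 ± 0.08, 1.64 ± 0.08 and 0.38 ± 0.08. AT5G02420, annotated as an SMR3-like CDK inhibitor, read 5.74, 2.86 and 3.52 TPM in DMSO, 14.1, 18.8 and 12.1 with ABA, 23.9, 20.7 and 24.5 with 3'-propyl ABA and 18.4, 12.9 and 15.8 with 3'-butyl ABA, and rose by 1.68 ± 0.21, 2.29 ± 0.21 and 1.76 ± 0.21. AT1G10690, another annotated CDK inhibitor, read 4.39, 3.09 and 2.12 TPM in DMSO, 5.13, 4.19 and 6.86 with ABA, 6.18, 4.52 and 3.63 with 3'-propyl ABA and 7.4, 6.44 and 7.3 with 3'-butyl ABA. It rose with ABA (0.62 ± 0.22) and 3'-butyl ABA (0.97 ± 0.22) and was not called with 3'-propyl ABA (0.47 ± 0.22).

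KRP7 fell most of the inhibitors, from 10.8, 10.9 and 8.3 TPM in DMSO to 3.83, 4.35 and 5.02 with ABA, 2.8, 2.14 and 1.7 with 3'-propyl ABA and 4.73, 4.5 and 6.25 with 3'-butyl ABA (-1.02 ± 0.17, -1.78 ± 0.17 and -0.84 ± 0.17). KRP6, at 18, 17.8 and 19.7 TPM in DMSO, 13.7, 14.4 and 14.9 with ABA, 11.7, 11.7 and 9.66 with 3'-propyl ABA and 9.94, 10.3 and 11.7 with 3'-butyl ABA, fell with all 3 compounds as well (-0.34 ± 0.10, -0.70 ± 0.10 and -0.74 ± 0.10). KRP3 fell with 3'-propyl ABA from 3.42, 7.31 and 5.97 TPM in DMSO to 2.26, 1.22 and 1.6 (-1.26 ± 0.23), with 3.38, 3.64 and 2.8 TPM under ABA and 3.09, 2.68 and 4.04 under 3'-butyl ABA. KRP5 read 7.49, 7.54 and 6.62 TPM in DMSO, 6.01, 5.78 and 5.82 with ABA, 4.8, 3.61 and 4.17 with 3'-propyl ABA and 5.45, 5.65 and 5.97 with 3'-butyl ABA, and fell with 3'-propyl ABA (-0.67 ± 0.11) and 3'-butyl ABA (-0.30 ± 0.11). SIM, the founding SIAMESE gene of trichome endoreduplication, fell with 3'-propyl ABA from 37.9, 26.8 and 28 to 20.9, 15.9 and 18.9 TPM (-0.70 ± 0.20), and so did AT1G08180, from 6.72, 6.8 and 4.43 to 3.35, 3.71 and 3.98 TPM (-0.56 ± 0.20). SIM read 30.3, 20.05 and 15.9 TPM with ABA, a wide spread, and 26, 28.3 and 26.8 with 3'-butyl ABA. KRP4 rose with 3'-butyl ABA from 13.5, 11.1 and 9.83 to 15.7, 16.2 and 14.1 TPM (0.40 ± 0.12), and 38.7% of its exonic bases lie opposite CB5-B. SMR1 shares 40.3% of its exonic bases with AT3G10527 on the other strand, which was listed at 0 in 11 libraries. AT5G02220, AT5G40460 and AT3G27630, also annotated as CDK inhibitors, were not called against DMSO with any compound.

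Of a wider list of 79 cell cycle genes outside the 44, also chosen with earlier results of these data known, 75 could be tested. With 3'-propyl ABA 49 fell (65.3%, background 38.5%) and 8 rose (10.7%, background 27.5%). With ABA 20 fell (26.7%, background 24.7%) and 6 rose (8%, background 22%), and with 3'-butyl ABA 21 fell (28%, background 25.6%) and 8 rose (10.7%, background 25.1%), so the shares that fell with these compounds were near the background. Their medians were -0.63, -0.19 and -0.13. By at least 1 unit of log2(TPM + 1) 14 fell (background 12.9%) and 2 rose (background 11.3%) with 3'-propyl ABA.

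Replication genes were among those that fell most, though KRP7, given above, fell more with ABA and with 3'-propyl ABA. RNR1, the large subunit of ribonucleotide reductase, stood at 65, 78.1 and 73 TPM in DMSO, 44.5, 44.1 and 56.4 with ABA, 26.2, 22.6 and 22 with 3'-propyl ABA and 47.6, 50.8 and 47.6 with 3'-butyl ABA (-0.57 ± 0.10, -1.57 ± 0.10 and -0.55 ± 0.10). CDT1B, the second CDT1 gene, read 10.6, 11.9 and 12.8 TPM in DMSO, 5.93, 5.91 and 8.38 with ABA, 3.89, 5.22 and 3.13 with 3'-propyl ABA and 5.42, 6.17 and 5.28 with 3'-butyl ABA, and fell with each (-0.73 ± 0.17, -1.35 ± 0.17 and -0.94 ± 0.17). ORC6, a subunit of the origin recognition complex, read 5.48, 6.17 and 7.18 TPM in DMSO, 2.4, 3.11 and 4.24 with ABA, 3.09, 1.88 and 1.83 with 3'-propyl ABA and 3.48, 3.12 and 2.38 with 3'-butyl ABA, and fell by 0.79, 1.17 and 0.87. No treated library of these 3 genes reached its DMSO range.

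Histone genes of DNA synthesis fell in the same treatment. All 5 genes annotated as histone H3.1 fell with 3'-propyl ABA, by 1.14 to 1.49, with 4 lower with ABA and 3 with 3'-butyl ABA. Of 8 histone genes listed as H4, a name RefSeq gives to 1 of them, 7 fell with 3'-propyl ABA, and the one with the largest decrease, AT3G46320, went from 66.8, 86.4 and 73.3 to 25.2, 25.1 and 26 TPM (-1.53 ± 0.15). Values of such close copies are uncertain.

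Beside the inhibitors, PARP2, a poly(ADP-ribose) polymerase gene of the DNA damage response, rose with all 3 compounds, from 10.14, 8.77 and 8.55 TPM in DMSO to 22, 16.2 and 11.2 with ABA, 17.9, 13.1 and 13 with 3'-propyl ABA and 19.4, 15.3 and 16.7 with 3'-butyl ABA (0.74 ± 0.20, 0.62 ± 0.20 and 0.83 ± 0.20). CYCD4;2 rose with ABA (0.98 ± 0.23) and 3'-propyl ABA (0.61 ± 0.23) from 0.915, 1.71 and 1.44 TPM in DMSO to 3.05, 3.06 and 4.88 with ABA and 2.58, 3.18 and 2.03 with 3'-propyl ABA.

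The derivatives were compared with ABA and with each other at the matched dose and time, 3 pairs of compounds. 3'-propyl ABA against ABA had 25 of the 44 genes lower (56.8%, background 26.4%) and 2 higher, KRP1 (0.90 ± 0.13) and AUR2 (0.41 ± 0.14; background 15.5%). The median difference was -0.43, where that of all genes was -0.10. CYCA3;1 (-0.90 ± 0.22), CYCB1;2 (-0.84 ± 0.13) and TSO2 (-0.79 ± 0.16) were the lowest of the 25. With median-of-ratios scaling 20 of the 44 (45.5%) were lower, against 17.9% of all genes, with 4156 genes of all higher and 3491 lower where TPM gave 3021 and 5148. With quantile normalization 15 (34.1%) were lower, against 20.6% of all genes.

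Most of the 44 genes were higher with the longer side chain. 3'-butyl ABA against 3'-propyl ABA, which differ by 1 carbon of the chain, had 28 of the 44 genes higher (63.6%, background 31.2%) and 2 lower, KRP1 (-1.29 ± 0.13, adjusted p = 9.7e-06) and AUR2 (-0.37 ± 0.14, adjusted p = 0.043, limma; background 17.6%). The median was 0.44, and 0.13 over all genes. CYCD3;1 (0.86 ± 0.15), AUR1 (0.85 ± 0.16) and CYCA3;2 (0.82 ± 0.13) had the largest positive differences. With median-of-ratios scaling 22 (50%) were higher, against 21.5% of all genes, with 4194 of all genes higher and 4825 lower where TPM gave 6100 and 3431. With quantile normalization 16 (36.4%) were higher, against 23.1%. The AUR2 call was lost between 3'-butyl ABA and 3'-propyl ABA without any 1 of 7 libraries, and between 3'-propyl ABA and ABA without ABA replicate 1 or 3'-propyl ABA replicate 1 or 3.

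3'-butyl ABA and ABA could not be told apart on these genes. Of the 44, 0 were called (limma, background 0.819% higher and 0.783% lower), and 5 passed an unadjusted p under 0.05, where 17.3% of all genes did. Differences ran from -0.38 to 0.39 with a median of 0.01. The 95% intervals all lay within 1 log2 unit of 0, and 29 of the 44 within 0.5. The smallest unadjusted p were those of KRP1 (-0.38 ± 0.13, interval -0.66 to -0.10) and CDKA;1 (0.18 ± 0.06, interval 0.04 to 0.31), with adjusted p of 0.16 and 0.17. A p that misses the threshold does not show that the compounds act alike. Among the 75 other genes SMR1 was called, lower with 3'-butyl ABA (-0.44 ± 0.08, adjusted p = 0.025), and the call was lost without ABA replicate 2 or 3 or without 3'-butyl ABA replicate 1 or 3.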

How the data were processed

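Poly(A) RNA of 12 seedling libraries was sequenced as paired ends from strand-specific libraries, per the labels' protocols. Of tools and genome builds, bcl2fastq and TAIR10 are listed in the submitters' processing notes, and no aligner or counter (not given in the sources used here). As unit, the authors deposited TPM values for 27655 genes, which are scaled to the same total in each library, so a gene's value also moves with all others. The tables hold no counts, so limma was used, as planned for TPM, and not the count test planned for counts. Between 99.5% and 99.7% of low values were whole multiples of 1 read within 0.01 of a step, from which depth was estimated. Of the gene IDs, 27444 had a RefSeq entry and 211 had none.

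Every gene averaging 1 TPM or more over the libraries was fitted on log2(TPM + 1) with limma 3.58.1 in R 4.3.3, with 1 mean per treatment over all 12 libraries, a trended and robust prior, and Benjamini-Hochberg adjustment over 19528 genes (threshold 0.05, two-sided, 8 residual degrees of freedom). The script was tested on simulated data. The 4 treatments gave 6 pairs for comparison.

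The 44 genes, the 79 other genes and the markers were chosen with earlier results of these data known. Values per library are given for up to 4 called members per role with the largest changes from DMSO, for the CDK inhibitors that were called, KRP2 and CDKA;1, and for the 3 highest and 3 lowest called other genes. Further genes were named to account for each role. Alternatives were 2 other scalings, a pseudocount of 0.1, no filter, a replicate block and fits of only the 6 libraries compared. Others were a minimum of 1 unit of log2(TPM + 1), a longer promoter window and leaving out each library. Leaving out DMSO replicate 1 and ABA replicate 3 together was added after the data were seen.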

Additional observations from a re-analysis of the deposited data

How the results depend on the processing

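No called difference of a member changed sign under any alternative run, but comparisons with all genes did turn. The share of the 44 genes lower with ABA went from below that of all genes (22.7% against 24.7%) to above it without ABA replicate 3 (38.6% against 23%), and by under 5 percentage points under quantile normalization, with no filter on low values, with the replicate block and without DMSO replicate 1 or 3'-propyl ABA replicate 1 or 3. That with 3'-butyl ABA did so without both DMSO replicate 1 and ABA replicate 3 (27.3% against 25.4%). Under median-of-ratios scaling the balance of all genes turned from 6100 higher and 3431 lower to 4194 and 4825 for 3'-butyl ABA against 3'-propyl ABA, and from 3021 and 5148 to 4156 and 3491 for 3'-propyl ABA against ABA. Against DMSO it turned from 5371 and 7518 to 6580 and 6322 with 3'-propyl ABA. With ABA it went from 4295 and 4821 to 4651 and 4461, and with 3'-butyl ABA from 4899 and 4991 to 5037 and 4889. Of the 44 genes, 26 of the 32 lower with 3'-propyl ABA than in DMSO were called in every setting that kept the 0.05 threshold alone, as were 6 of 10 with ABA and 6 of 8 with 3'-butyl ABA. Fewer were kept between compounds, 15 of the 25 lower with 3'-propyl ABA than ABA and 14 of the 28 higher with 3'-butyl ABA than 3'-propyl ABA. The 3'-butyl ABA against ABA comparison called 0 of the 44 in every setting.

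With a minimum of 1 unit of log2(TPM + 1), calls among the 44 genes are given as higher, then lower. Against DMSO they were 0 and 0 for ABA, 2 and 4 for 3'-propyl ABA and 0 and 0 for 3'-butyl ABA. They were 0 and 0 for 3'-propyl ABA against ABA, and 0 and 1 for 3'-butyl ABA against 3'-propyl ABA. Among the 75 other genes they were 1 and 1, 2 and 14, 1 and 0, 0 and 4, and 5 and 1 in the same order, with 0 and 0 for 3'-butyl ABA against ABA. Quantile normalization gave 13 of the 44 lower with 3'-butyl ABA than in DMSO, a share near that of all genes (6019 of 19528). It gave 15 lower with 3'-propyl ABA than ABA and 16 higher with 3'-butyl ABA than 3'-propyl ABA. Among the other genes it gave 6 higher and 26 lower for 3'-propyl ABA against ABA and 24 higher and 9 lower for 3'-butyl ABA against 3'-propyl ABA. It gave 2 lower for 3'-butyl ABA against ABA, as did median-of-ratios scaling (2). Over all genes quantile normalization gave 3379 higher and 4029 lower, 4517 and 4136, and 211 and 212 for these 3 comparisons. Of the 44, 4 were lower with 3'-butyl ABA than 3'-propyl ABA under median-of-ratios scaling (4825 of all genes) and 1 with a pseudocount of 0.1 (3353 of all genes). With only the 6 libraries compared, 1 was higher with 3'-propyl ABA than ABA (2743 of all genes). In that setting 13 other genes were lower with ABA than in DMSO (4243 of all genes). The cause of these shifts was not tested.

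Leaving out 1 library at a time gave these ranges for the 44 genes, higher then lower: 2 to 3 and 7 to 17 with ABA (17 without ABA replicate 3), 3 to 4 and 27 to 34 with 3'-propyl ABA, 2 to 2 and 6 to 10 with 3'-butyl ABA, all against DMSO, 1 to 2 and 19 to 26 for 3'-propyl ABA against ABA, and 25 to 30 and 1 to 3 for 3'-butyl ABA against 3'-propyl ABA. For the other genes the ranges were 4 to 7 and 11 to 25 (11 without ABA replicate 2), 6 to 9 and 42 to 50, and 6 to 9 and 12 to 23 (12 without DMSO replicate 2 or 3'-butyl ABA replicate 1) against DMSO, then 2 to 4 and 34 to 42, and 34 to 41 and 2 to 5 (2 without 3'-propyl ABA replicate 1 or 3'-butyl ABA replicate 3), and 0 to 0 and 0 to 1 for 3'-butyl ABA against ABA. Over all 19528 genes the ranges against DMSO, higher then lower, were 3523 to 4503 and 3990 to 4802 with ABA. They were 4842 to 5459 and 6908 to 7607 with 3'-propyl ABA, and 3959 to 5217 and 4251 to 5082 with 3'-butyl ABA. Without both DMSO replicate 1 and ABA replicate 3, a choice made after seeing the data, 16 of the 44 were lower with ABA (4401 of all genes).

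Same-numbered replicates were not treated as pairs, since the labels give no shared batch and not every pair correlated above 0.1. Their deviations correlated at -0.168 to 0.329 (median 0.089, against -0.043 for other pairs), with 9 of 18 pairs over 0.1, and 6 of 12 libraries were closest to their own number, a hint from the data and not the design. With the replicate block 3 of the 44 genes were higher and 11 lower with ABA, 4 and 32 with 3'-propyl ABA, and 2 and 8 with 3'-butyl ABA. The counts over all genes were 4374 and 4854, 5449 and 7618, and 5023 and 4979 in the same order. Over all genes, the block raised the calls of 3'-butyl ABA against ABA from 160 higher and 153 lower to 436 and 319, with 0 among the 44. With 3 libraries a treatment, the median 95% interval of the 44 genes reached 0.306 log2 units to either side. Differences smaller than this could be missed for many genes, though some were called. Genes under 10 TPM rest on few reads.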
